A study of Homo sapiens with 6 samples.

Results

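Heat shock proteins are chaperones, and the 10 genes described here encode members of their main families: HSPA1A, HSPA1B, HSPA8 and HSPA5 (HSP70), HSPH1 (HSP110), HSP90AA1 and HSP90AB1 (HSP90), DNAJB1 (HSP40), and HSPD1 and HSPE1, the mitochondrial chaperonin and its partner. The genes were chosen by name, with earlier results of these data known. A SMARCA4 peak was given to a gene when it shared at least 1 bp with the gene's span in the GENCODE annotation of hg19, extended by 5 kb on each side. By this rule 36 of the 28265 peaks in the list belonged to the 10 genes, out of 19756 protein-coding genes on the autosomes and the X chromosome. SMARCA4, an ATPase that powers the SWI/SNF chromatin remodelling complex, was mapped by ChIP-seq in K562, an established line from a human chronic myelogenous leukaemia, with 3 ChIP libraries and 3 input libraries of chromatin that skipped the antibody step. The labels name no heat shock or drug treatment, and all libraries share the same crosslinking, with 2 mM disuccinimidyl glutarate for 30 min and 1% formaldehyde for 10 min, and fragments of 150 to 400 bp. The paper calls the replicates biological whereas the series design calls them technical with 1 input, and the description label of the SMARCA4 libraries reads "G4 ChIP-seq" although their antibody label reads SMARCA4. The list pools the replicates and holds the regions found in at least 2 of 3, each given by its position without any height, so no value below has a spread between replicates and the depth is not known from it.

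Chaperones bind unfolded proteins and keep them from aggregating. HSP70 proteins do so in cycles driven by ATP, in which HSP40 proteins deliver the substrate and HSP110 proteins exchange the nucleotide, while HSP90 completes the folding of kinases and steroid receptors and the mitochondrial chaperonin encloses its substrate under the lid that HSPE1 forms. Heat and other stresses activate heat shock factor 1, which binds heat shock elements, arrays of inverted GAA units, and the inducible genes of the class are a classical model of rapid transcription through nucleosomes. Stress in the endoplasmic reticulum raises HSPA5 by a separate route through ER stress elements.

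A promoter peak was a peak within 1 kb on either side of the transcription start site (TSS) of any protein-coding transcript of the gene. Of the 10 genes, 9 had a promoter peak, beside 46.9% of all protein-coding genes (9268 of 19756). The same 9 genes were those with any peak in their extended span, which held a peak in 59.5% of all protein-coding genes. HSPH1 was the gene without a peak. The TSS of the canonical transcript, the representative one that the annotation marks, lay inside a peak in 8 of the 10 genes and in 34.5% of all protein-coding genes. The exception among the 9 genes was HSPE1, whose canonical TSS lay just outside its peak. Of the 36 peaks, 16 were promoter peaks, 6 lay at the end of a gene, 8 lay further before the canonical TSS, 5 lay beyond the gene and 1 lay inside a transcript. The number of peaks per gene ran from 0 in HSPH1 to 10 in DNAJB1, with a median of 4 beside a median of 1 over all protein-coding genes. The extended windows differed in length, from 12404 bp at HSPA1A to 68958 bp at HSP90AA1. Just outside the 5 kb limit, the nearest further peak lay 6567 bp from HSPA1B, 6800 bp from DNAJB1, 7842 bp from HSP90AB1 and 8251 bp from HSPA1A.

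**Figure D1:**
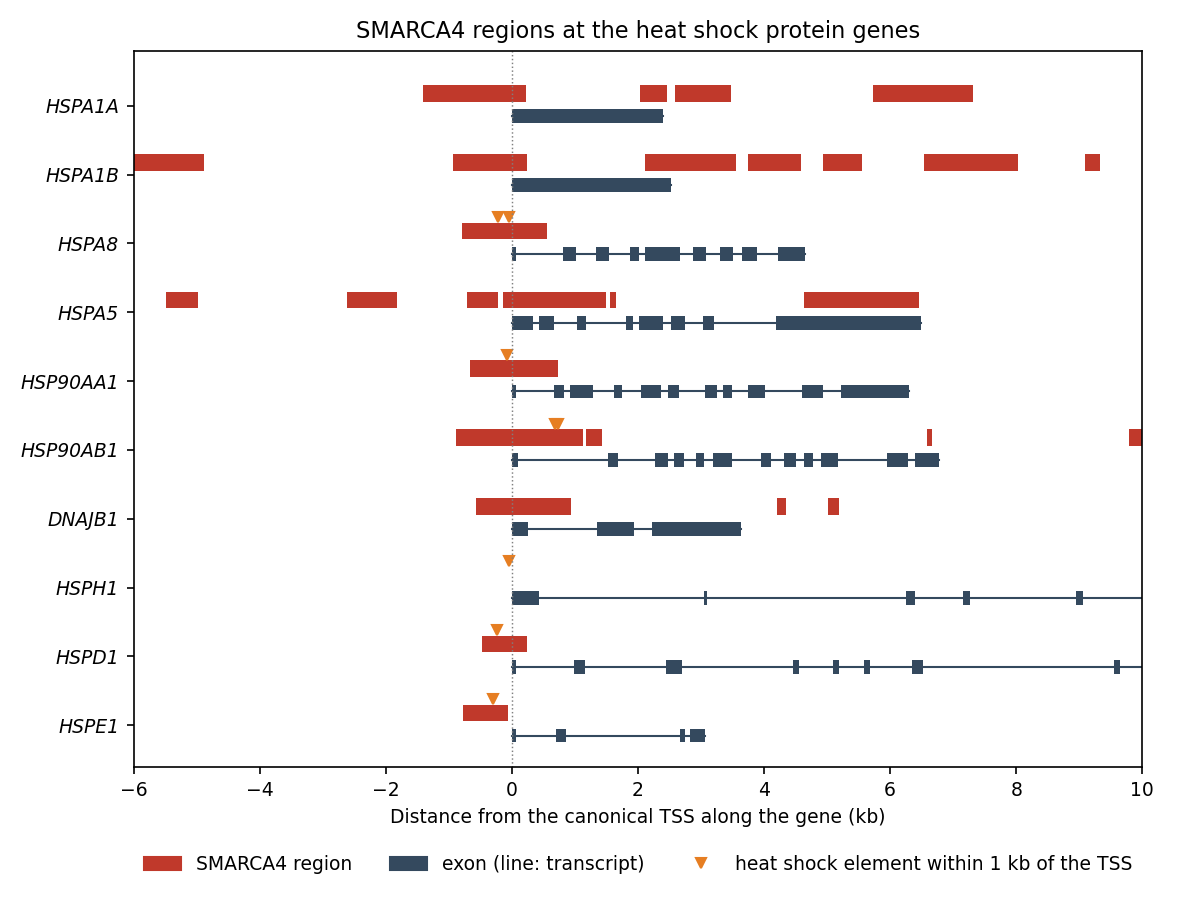
Peaks (red), exons of the canonical transcript (dark) and heat shock elements within 1 kb of the TSS (orange triangles) of the 10 genes, plotted by distance from the canonical TSS in kb along each gene. Peaks cover the TSS of 8 genes, that of HSPE1 ends at -68 bp, HSPA1A, HSPA1B, HSPA5, HSP90AB1 and DNAJB1 also have peaks near their 3′ ends, and HSPH1 has an element but no peak.

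HSPA1A and HSPA1B, the neighbouring genes of the major stress-inducible HSP70, consist of 1 exon each and lie in the major histocompatibility complex region of chromosome 6. The promoter peak of HSPA1A (chr6:31781906-31783548) was 1643 bp wide and ran from -1414 to 228 bp around the TSS. That of HSPA1B (chr6:31794576-31795762) was 1187 bp wide and ran from -939 to 247 bp. Both peaks thus lay mostly before the TSS and ended in the first bases of the gene, with 15 coding bases of HSPA1A and 35 of HSPA1B inside them. Further peaks stood at the 3′ ends. At HSPA1A, peaks of 423 and 879 bp covered or followed the end of the transcript, and at HSPA1B a peak of 1446 bp spanned it and peaks of 837, 622 and 1493 bp followed within 5 kb. The last of these held the start of SNHG32, the host gene of small nucleolar RNAs that include SNORD48. A peak of 1574 bp between the genes fell within 5 kb of both. Peaks covered 36.4% of the extended window of HSPA1A and 41.5% of that of HSPA1B, beside a median of 0.555% over all protein-coding genes, those without a peak included, and 8.19% over the 10 genes. These shares depend on window length, and the median gene length was 7126.5 bp over the 10 genes and 27021 bp over all protein-coding genes.

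The 120 bases before the TSS of these genes are shown because both stretches lie wholly in the promoter peaks and because they were 93.3% identical (111 of 119 bases aligned without gaps, at a shift of 1 base). They are read from hg19, plus strand, at chr6:31783200-31783319 and chr6:31795395-31795514. Capitals mark the TATAAA motif, the reverse complement of the CCAAT motif, and the matching GAA and TTC units of an array of 3 units in which the last unit had 1 base off.
HSPA1A: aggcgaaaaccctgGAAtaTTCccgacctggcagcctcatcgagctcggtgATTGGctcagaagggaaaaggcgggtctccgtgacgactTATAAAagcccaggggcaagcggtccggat
HSPA1B: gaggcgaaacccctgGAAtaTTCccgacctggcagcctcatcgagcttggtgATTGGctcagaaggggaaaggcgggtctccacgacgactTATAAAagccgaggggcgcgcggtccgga

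The bodies of HSPA1A and HSPA1B are near-identical copies, and how far short reads from them can be placed at a single site was measured on 75-base stretches of hg19 cut every 25 bases and mapped back to the genome, and stretches with a mapping quality of 10 or more counted as unique. In the canonical transcript 24 of 94 stretches of HSPA1A and 28 of 98 of HSPA1B were unique. In both genes the longest run of stretches that were not unique went from 225 to 1924 bp after the TSS. The promoter peaks ended at 228 and 247 bp, and the next peaks began at 2031 bp in HSPA1A and 2113 bp in HSPA1B. Between the promoter peak and the next peak, 2 of 69 stretches were unique in HSPA1A and 3 of 72 in HSPA1B. Inside the promoter peaks, 61 of 63 and 44 of 44 were unique. The part of read placement in the edges of these peaks and in the gap over the gene bodies was not tested. The methods of the study name a filter on low mapping quality, and any other treatment of reads with several placements is not given in the sources used here.

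**Figure D2:**
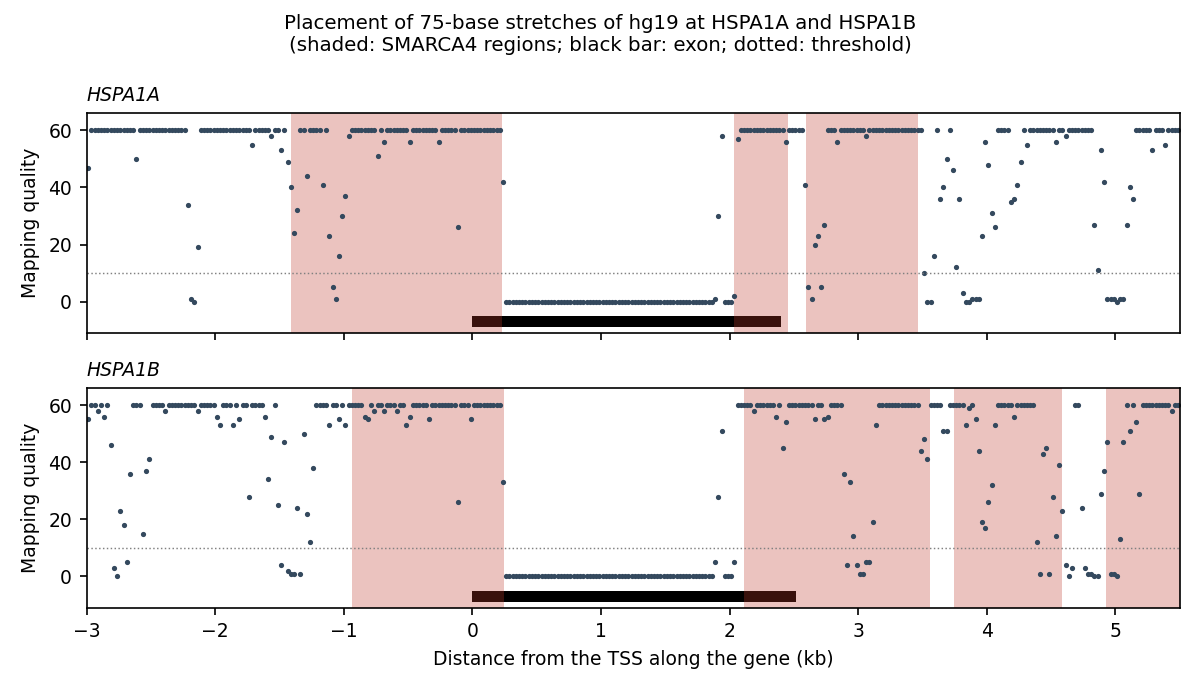
Mapping quality (y axis) of 75-base stretches of hg19 at HSPA1A and HSPA1B against the distance of the stretch's centre from the TSS in kb, with peaks shaded, the exon as a black bar and the threshold of 10 dotted. Stretches from 225 to 1924 bp after the TSS fall below the threshold in both genes, and the peaks lie on either side of that run.

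HSPA8, the constitutive HSP70 of the cytosol, had a single peak (chr11:122932295-122933642). It was 1348 bp wide, ran from -798 to 549 bp around the canonical TSS, and held no coding base. Its sequence was 64.5% G and C. It contained 2 heat shock elements, defined here as at least 3 alternating GAA and TTC units in a row with 2 bases between them. Both are printed on the gene's strand, minus, with 6 bases on either side and the units in capitals, from chr11:122932881-122932905 (-55 to -43 bp) and chr11:122933056-122933080 (-230 to -218 bp). Both overlap exons of other annotated transcripts.
HSPA8 near the TSS: ggccccTTCtgGAAggTTCtaagat
HSPA8 further before the TSS: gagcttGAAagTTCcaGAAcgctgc

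HSPA5, the HSP70 of the endoplasmic reticulum also known as BiP, had 6 peaks, of which 2 were promoter peaks. The wider of these (chr9:128002137-128003763) measured 1627 bp and ran from -141 to 1485 bp, so that it lay mostly inside the gene, over exons 1 to 3 and 492 coding bases. The other (495 bp, -717 to -223 bp) held the start of HSPA5-DT, a divergent long non-coding RNA. With 49.3% G and C, the wide peak had the lowest content among the widest promoter peaks of the 9 genes. It held 5 CCAAT motifs and the ER stress element, CCAAT and CCACG with 9 bases between them, which occurred in a promoter peak of 0.194% of the 9268 genes that had one. The element lies at -66 to -48 bp and is printed with CCAAT and CCACG in capitals, minus strand, from chr9:128003664-128003694.
HSPA5: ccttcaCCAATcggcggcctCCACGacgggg

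The widest peak of HSPA5 was not at its start but at its 3′ end (chr9:127997171-127998991). It measured 1821 bp and lay wholly within exon 8, the last, with 118 coding bases, so that most of it was 3′ untranslated sequence. Of 70 stretches inside this peak, 69 were unique. Further before the gene stood a peak of 797 bp, from -2623 to -1827 bp. It held 4 GATA motifs (spelled as AGATAA, as AGATAG, as TGATAA or as TGATAG) and 2 AP-1 motifs (TGAGTCA on either strand). Both motifs are common in the list. In the 400 bp about the centre, a shorter stretch, 51.4% of all peaks held a GATA motif and 16.4% an AP-1 motif. Peaks covered 29.6% of the extended window, below HSPA1A and HSPA1B and above the other 7 genes.

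HSP90AA1 and HSP90AB1 encode the stress-inducible and the constitutive HSP90 of the cytosol. The promoter peak at the canonical TSS of HSP90AA1 (chr14:102552647-102554043) was 1397 bp wide and close to symmetrical, with 662 bp before the TSS and its centre at 36 bp. It was 71.9% G and C, held 12 GGGCGG motifs, and contained 1 heat shock element at -88 to -76 bp. A second promoter peak of 177 bp belonged to an alternative TSS at -52655 bp, beside the start of WDR20, an adaptor of a deubiquitinase. The wider of the 2 promoter peaks of HSP90AB1 (chr6:44213946-44215961) was the widest promoter peak among the 10 genes, at 2016 bp, and ran from -892 to 1123 bp. Its 2 heat shock elements stood in intron 1 of the canonical transcript, at 677 to 689 bp and 730 to 742 bp, and none lay before the TSS within 1 kb. The elements are printed on the strand of the gene, with the units in capitals, from chr14:102553451-102553475, chr6:44215509-44215533 and chr6:44215562-44215586.
HSP90AA1: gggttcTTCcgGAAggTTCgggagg
HSP90AB1 first: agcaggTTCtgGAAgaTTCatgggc
HSP90AB1 second: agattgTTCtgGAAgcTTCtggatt

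HSP90AB1 had 3 more peaks. A peak of 252 bp in intron 1, within 1 kb of an alternative TSS and so the other promoter peak, and a peak of 73 bp in exon 12, the last, were narrow, and a peak of 960 bp beyond the gene held the start of SLC35B2, a transporter of the Golgi. HSP90AA1 had 2 more peaks between its alternative and canonical starts, of 342 and 188 bp. All 73 stretches in the peaks of HSP90AA1 and all 120 in those of HSP90AB1 were unique, but the 73-bp peak is shorter than a stretch and was not measured. Both genes are known to have processed copies elsewhere in the genome, and 85 of 98 and 59 of 65 stretches lying in their exons were unique.

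DNAJB1, the inducible HSP40 that serves HSPA1A and HSPA8, had the most peaks, 10, but its annotated span of 45623 bp includes alternative starts far before the canonical gene of 3629 bp. The promoter peak at the canonical TSS (chr19:14628270-14629780) was 1511 bp wide and ran from -571 to 939 bp, over exon 1 with 211 coding bases. It was 70.9% G and C and held 14 GGGCGG motifs, the highest count among these promoter peaks. The other 9 peaks measured 138 to 653 bp. Among them, 4 were promoter peaks of alternative starts, and the peak of 407 bp held the starts of TECR, an enzyme of fatty acid elongation, and of MIR639. No heat shock element of 3 perfect units lay within 1 kb of the canonical TSS. Before the TSS, arrays with 1 base off lay at -77 to -65 bp and -52 to -40 bp, and they are printed on the minus strand from chr19:14629268-14629292 and chr19:14629243-14629267 with the matching units in capitals.
DNAJB1 further before the TSS: ggggcgGAAggTTCtggagggggct
DNAJB1 near the TSS: ggcgggctctgGAAgcTTCcgccgg

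HSPH1 encodes HSP110, the nucleotide exchange factor of HSP70, and had no peak within 5 kb of its span (chr13:31709110-31736525). The nearest peak, of 668 bp, lay 37507 bp away. All 77 stretches within 1 kb of its canonical TSS were unique. The 300 bp from 250 bp before to 50 bp after its TSS, counting the TSS base among the latter, were 64.0% G and C, beside a median of 63.7% over all protein-coding genes. They held a heat shock element at -59 to -47 bp, printed here from the minus strand of chr13:31736082-31736106 with the units in capitals because, of the perfect elements within 1 kb of a canonical TSS of the 10 genes, it is the one outside the peaks. A missing peak says that no region passed in at least 2 of 3 replicates, and how much signal the gene had is not given by the list. The cause of the missing peak was not tested.
HSPH1: cgcagaTTCtgGAAagTTCtgatca

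HSPD1 and HSPE1, the mitochondrial chaperonin HSP60 and its lid HSP10, stand head to head on chromosome 2 and shared a promoter peak (chr2:198364320-198365035). At 716 bp it was the narrowest of the widest promoter peaks. It ran from -471 to 244 bp around the TSS of HSPD1 and from -783 to -68 bp around the canonical TSS of HSPE1, and it covered the other annotated coding start of HSPE1, at -239 bp from the canonical TSS. The canonical starts lie 539 bp apart. The peak was 70.4% G and C and contained a heat shock element of 4 units, at -245 to -228 bp from HSPD1 and -311 to -294 bp from HSPE1. It is printed from the plus strand of chr2:198364786-198364815 with the units in capitals, and it overlaps an exon of another annotated transcript.
HSPD1 and HSPE1: gctcggTTCcaGAActTTCcaGAAaatgcc

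HSPD1 had a further promoter peak of 666 bp at an alternative start beside the start of MOB4, of the MOB family of kinase cofactors, and HSPE1 had none. All 26 stretches in the shared peak were unique, whereas 38 of 56 stretches in the exons of HSPD1 were, a gene known to have processed copies.

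The widest promoter peak of each gene was then set beside those of all protein-coding genes. Its median was 1397 bp over the 9 genes and 533 bp over the 9268 genes, with quartiles of 343 and 802 bp. All 9 genes were above the median of all genes. HSP90AB1 (2016 bp) stood at percentile 98.6, HSPA1A (1643 bp) at 96.9 and HSPA5 (1627 bp) at 96.8. DNAJB1 (1511 bp) stood at 95.8, HSP90AA1 (1397 bp) at 94.3, HSPA8 (1348 bp) at 93.7 and HSPA1B (1187 bp) at 90.8. HSPD1 and HSPE1, with 1 peak between them, stood apart at 68.4. At least 1500 bp was reached by 4 of the 9 genes, HSP90AB1, HSPA1A, HSPA5 and DNAJB1, and by 4.35% of the genes with a promoter peak. Over all 36 peaks, 6 reached this width, the other 2 being the peak between HSPA1A and HSPA1B and the 3′ peak of HSPA5, beside 1.72% of all peaks of the list. The list holds regions down to 1 bp wide, so a width is that of a listed region and not of a peak in 1 library. How its edges were drawn from the replicates is not given in detail. The part of sequencing depth in a width was not tested, nor was that of read placement at HSPA1A and HSPA1B.

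**Figure D3:**
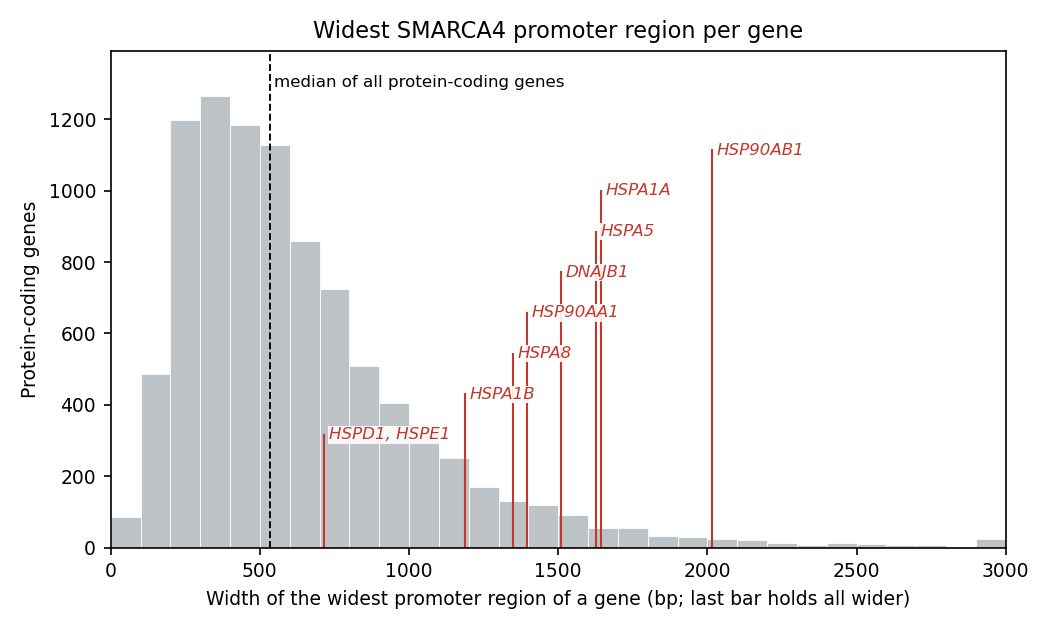
Number of protein-coding genes (bars, y axis) by the width of their widest promoter peak in bp (x axis, bins of 100 bp), with the 9 heat shock protein genes as red lines. The dashed line is the median of all protein-coding genes, 533 bp, and all 9 genes lie to its right, from 716 bp for HSPD1 and HSPE1 to 2016 bp for HSP90AB1.

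A peak within 1 kb of the end of the canonical transcript, other than a promoter peak of the same gene, was found in 5 of the 10 genes and in 5.18% of all protein-coding genes. The 5 genes were HSPA1A, HSPA1B, HSPA5, HSP90AB1 and DNAJB1. These peaks differed in kind. At HSPA1A, HSPA1B and HSPA5 they measured 423 to 1821 bp, whereas those of HSP90AB1 (73 bp) and DNAJB1 (138 bp) were narrow. The definition of gene ends was chosen after the data were seen.

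Shared divergent promoters were taken as those with a TSS of another gene, on the other strand, within 1 kb before a TSS of the gene. With coding genes as partners, 5 of the 10 genes had one, beside 14.3% of all protein-coding genes. HSPA1A faces HSPA1L, an HSP70 gene best known from the testis, at 260 bp, and their peak covered both starts. HSPD1 and HSPE1 face each other. HSP90AA1 and DNAJB1 counted through alternative starts far from the canonical TSS, at WDR20 (145 bp) and TECR (253 bp). At their canonical starts neither had a coding partner, and 3 genes were left by that definition, beside 9.35% of all protein-coding genes. With long non-coding RNAs and other gene types added, HSPA1B, HSPA8 and HSPA5 joined, and 8 of 10 genes had a partner, beside 29.3% of all protein-coding genes. HSP90AB1 and HSPH1 had none by any of these definitions.

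Motifs were counted on both strands. Of the 9 genes with a promoter peak, 5 had a heat shock element in one, HSPA8, HSP90AA1, HSP90AB1, HSPD1 and HSPE1 (the last 2 through the same element), beside 0.906% of the 9268 genes. The count depended on the definition, with 2 genes (0.0971% of the 9268) for at least 4 units and 8 (9.96%) with 1 base off allowed. Since wide peaks hold more sequence, windows of equal length were also compared. In the 300 bp around the canonical TSS, 4 of 10 genes had an element (HSPA8, HSP90AA1, HSPH1 and HSPD1), beside 0.364% of all protein-coding genes (72 of 19756). Of these 72 genes, 28 had a peak within 1 kb of the canonical TSS (38.9%, 95% Wilson interval 28.5 to 50.4%, for counting error only), and of the genes without an element 44.4% did. In the 400 bp about the peak centre, an element was found in 3 of the 9 promoter peaks at the canonical starts (33.3%, 95% Wilson interval 12.1 to 64.6%), beside 0.441% of the promoter peaks of all protein-coding genes and 0.598% of all peaks. The 0.441% counts promoter peaks at any coding start and not at canonical starts alone. A match is a stretch of letters, and whether a factor was bound there was not measured.

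GGGCGG occurred in the 300-bp window of all 10 genes and of 61.3% of all protein-coding genes, and CCAAT in that of 6 genes and 35.9%. CCAAT was present at HSPA1A, HSPA1B, HSPA8, HSPA5, DNAJB1 and HSPH1, with 5 occurrences at HSPA5. TATAAA was present at HSPA1A and HSPA1B and in 9.74% of all windows. TGACGTCA, the cyclic AMP response element, was present at HSP90AB1 and in 2.72% of all windows. The GATA motif was present at HSPA8 and HSPA5 and in 18.4% of all windows, and the AP-1 motif at none of the 10 genes and in 3.57%.

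A G4 motif, in which 4 runs of 3 or more guanines are joined by loops 1 to 7 bases long, occurred in a promoter peak of 7 of the 9 genes, beside 52.6% of the 9268 genes with a promoter peak. HSPA1B and HSPA5 had none. The promoter peak of HSPA1A held 4 such motifs and that of its copy HSPA1B held 0, and all 4 lay from -934 to -367 bp, before the stretch printed above. In the 300-bp window only HSPD1 had one (2 motifs), which is 1 of 10 genes (95% Wilson interval 1.79 to 40.4%), beside 33.9% of all protein-coding genes. The motif nearest the canonical TSS of each gene is printed 5′ to 3′ on the strand rich in guanines, with its guanine runs in capitals. Its centre lay at -380 bp in HSPA1A (chr6:31782927-31782953), -269 bp in HSPA8 (chr11:122933104-122933122), -326 bp in HSP90AA1 (chr14:102553695-102553719) and 344 bp in HSP90AB1 (chr6:44215170-44215193). It lay at -312 bp in DNAJB1 (chr19:14629510-14629533), -104 bp in HSPD1 (chr2:198364657-198364680) and -388 bp in HSPE1 (chr2:198364707-198364724), the last 2 inside the shared peak. The guanines were on the gene's own strand in HSP90AA1, HSP90AB1, DNAJB1 and HSPD1. Whether the sequences fold in these cells was not measured.
HSPA1A: GGGcaGGGGGctggtgcGGGGagcGGG
HSPA8: GGGGaaaGGGaGGGtGGGG
HSP90AA1: GGGGGtgcaGGGcggaGGGcgcGGG
HSP90AB1: GGGctgtGGGGttGGGGcagtGGG
DNAJB1: GGGcGGGacgcaGGGtagctGGGG
HSPD1: GGGcccGGGctgacGGGaagtGGG
HSPE1: GGGtaGGGaGGGGcGGGG

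Other chaperone genes were counted by class. Of 72 listed genes 71 are protein-coding, HSPA7 being annotated as a pseudogene, and 53 of these (74.6%, 95% Wilson interval 63.4 to 83.3%) had a promoter peak. The median of the widest promoter peak was 571 bp over these 53 genes, beside 1397 bp for the 9 heat shock protein genes and 533 bp for all protein-coding genes. All 8 genes of TRiC, the cytosolic chaperonin, had a promoter peak, and that of CCT5 was the widest at 1007 bp. Among co-chaperones it was 18 of 20, with PTGES3, the HSP90 co-chaperone p23, at 2666 bp, wider than that of any of the 10 genes. AHSA1 and CHORDC1, which also assist HSP90, had none. Of 14 further HSP40 genes 12 had one, the widest being that of DNAJB4 (1974 bp), and DNAJA4 and DNAJB5 had none. Both further HSP90 genes had one, HSP90B1 of the endoplasmic reticulum with 865 bp and the mitochondrial TRAP1 with 766 bp.

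The remaining classes were counted in the same way. Of 11 further HSP70 genes 7 had one, HSPA1L through the peak it shares with HSPA1A, and HSPA2, HSPA6, HSPA12A and HSPA12B had none. Of 9 small heat shock protein genes 3 had one, the widest at HSPB1 (805 bp), and HSPB2, HSPB3, HSPB7 and HSPB8 were among those without. Of 7 genes of heat shock factors and their binding protein 3 had one, the widest at HSF4 (1266 bp). HSF5, HSFX1, HSFX2 and HSBP1 had none, and HSF1, the master regulator of the response, had 1 promoter peak of 265 bp. A heat shock element lay in the 300-bp window of 6 of the 71 genes, DNAJA1, DNAJB6, CRYAB, ST13, HSPA6 and CHORDC1, of which the first 4 had a peak within 1 kb of the canonical TSS. HSF1 and these 6 genes were named after their values were seen.

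**Figure D4:**
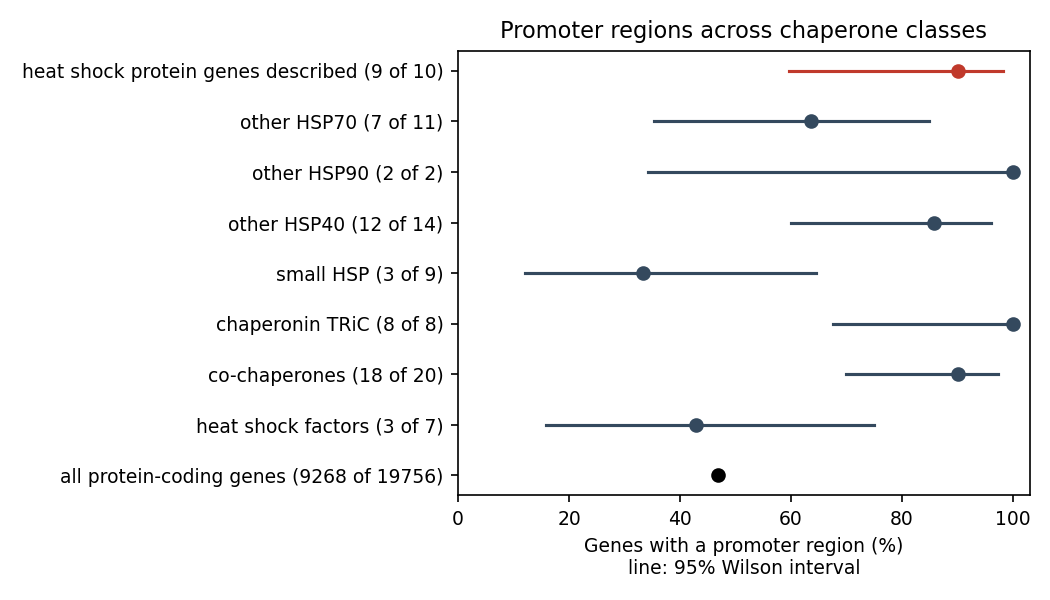
Share of protein-coding genes with a promoter peak in percent (x axis) for the 10 heat shock protein genes, the classes of other chaperone genes and all protein-coding genes, with 95% Wilson intervals as lines. The share is 90% for the 10 genes, 100% for TRiC, 33.3% for small heat shock proteins and 46.9% for all protein-coding genes.

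The cell label was checked on markers. A promoter peak was present at GATA1, TAL1, KLF1, LMO2, NFE2, HBG1 and HBG2, genes known from K562 and the erythroid lineage. It was absent from CD3E, MS4A1, CD14, LYZ and MPO, markers of other blood lineages, and present at 0 of 5 markers of other tissues (ALB, INS, MYH6, KRT5 and NEUROD1).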

How the data were processed

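SMARCA4 ChIP-seq libraries of K562 were processed by the authors, who used cutadapt for trimming, BWA for alignment to hg19, and Picard with SAMtools to remove duplicates, called peaks per replicate against an input with MACS2 at a q-value threshold of 0.05, and kept with bedtools the regions found in at least 2 of 3 replicates. The deposited values are chromosome, start and end in bp, in 1 pooled list with no height, so no test over samples was made, and the list itself gives no depth. From these, peaks were compared with the GENCODE annotation (release 44, hg19) and the hg19 sequence, using Python 3.11.15, numpy 2.4.6, pysam 0.24.0, statsmodels 0.14.6, scipy 1.17.1 and matplotlib 3.10.9. Stretches of 75 bases were mapped with minimap2 2.31-r1302. Motif scans and overlaps were tested on simulated data.

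The genes and lists were chosen with earlier results of these data known. Named genes are all 10 heat shock protein genes, the gene with the widest promoter peak and up to 4 genes without one from each chaperone class, and neighbours that share a promoter or start inside a peak. Alternatives were narrower promoters, narrower or wider flanks, peaks of at least 200 bp, merged peaks, other sets of start sites, and looser or stricter motifs. Genes of the Y chromosome were left out. Signal tracks and reads were not analysed here. Some of the cell type markers examined are not reported here.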

Additional observations from a re-analysis of the deposited data

How the results depend on the processing

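Of the 10 genes, 9 had a promoter peak under every alternative except the outermost TSS alone, which gave 8. The median of their widest promoter peak was 1397 bp under the same alternatives and 1268 bp with the outermost TSS, where 7 of the 8 genes, in place of 9 of 9, were above the median of all genes. Over all protein-coding genes this median was 533 bp. It moved to 632 bp with merged peaks, 569 bp where the peak had to cover a TSS and 558 bp with peaks of at least 200 bp. Under the other alternatives it was 523 to 536 bp. The share of all protein-coding genes with a promoter peak was 46.9% and moved to 44% with peaks of at least 200 bp, 45.1% with 1 kb before the TSS only, 45.8% within 500 bp, 38.9% where the peak had to cover a TSS, 48.3% with every annotated transcript, 42.7% with the outermost TSS and 44.4% with canonical transcripts. The genes held 28 to 40 peaks over the alternatives, beside 36.

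Divergent partners were found for 8 genes with every gene type (29.3% of all genes), 3 with canonical transcripts (9.35%) and 5 within 500 bp (13.1%), in place of 5 (14.3%). A heat shock element was in a promoter peak of 2 genes with at least 4 units (0.0971% of all genes with a promoter peak) and of 8 with 1 base off allowed (9.96%), in place of 5 (0.906%). It was found for 4 genes in the 400 bp about the peak centre (0.658%) and 4 of 10 in the promoter window (0.364% of all protein-coding genes). With loops of up to 12 bases, G4 motifs were in 8 of 9 genes (69.1% of all genes with a promoter peak), in place of 7 of 9 (52.6%). In the 400 bp about the peak centre they were in 5 of 9 genes (49.5%). Counted by peak, they were in 3 of the 9 promoter peaks at the canonical starts (33.3%), beside 40.7% of the promoter peaks of all protein-coding genes at any coding start. End peaks were left in 3 genes (4.56% of all genes) with peaks of at least 200 bp, 4 (3.43%) within 500 bp and 5 (3.16%) without promoter peaks of any coding gene, in place of 5 (5.18%). The causes were not tested. Canonical transcripts and the alternatives for gene ends were chosen after seeing the data.

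No paired analysis was possible because the list pools the 3 replicates, and for the same reason no replicate was left out in turn. The list holds no height, so signal at a gene without a peak is not known, nor are widths at another depth.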

Other observations

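Genes of the proteasome core, which degrades the proteins that chaperones fail to refold, had a promoter peak in 11 of 14 cases (78.6%), with a median of the widest promoter peak of 509 bp, beside 46.9% and 533 bp for all protein-coding genes. None of these reached the 1500 bp that 4 of the heat shock protein genes passed. Genes of the integrated stress and unfolded protein responses had one in 10 of 10 cases, with a median of 1049 bp, and 3 of them reached 1500 bp: PPP1R15A (4895 bp), ATF3 (1913 bp) and DDIT3 (1571 bp). HSPA5, with its peak of 1627 bp, is a target of the unfolded protein response. HERPUD1, another target of that response, had a promoter peak of 1471 bp. The widest promoter peaks of the other listed genes were narrower. They measured 1233 bp at ATF4, 865 bp at SESN2 and 826 bp at TRIB3. Those of ASNS (532 bp), CHAC1 (464 bp) and XBP1 (443 bp) lay below the median of all protein-coding genes. The genes in this paragraph were singled out after their values were seen, and differences between these lists were not tested.

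Peaks at gene ends were found in 7 of the 71 other chaperone genes (9.86%) and in 2 of the 10 stress response genes, beside 5 of the 10 heat shock protein genes (3 of 10 with peaks of at least 200 bp) and 5.18% of all protein-coding genes.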
